A study of Mus musculus with 2 samples.

Results

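This report describes 8 mouse genes of the enzymes that use arginine, of nitric oxide synthesis and of itaconate synthesis, among the 31053 genes counted in single cells sorted from the colon. They were Slc7a2, Arg1, Arg2, Nos2, Ass1, Asl, Odc1 and Acod1, found by symbol in the gene table, and each matched 1 row. The genes were chosen by their function with measured values of these same libraries already known, so the values that follow are a description and no test was made on them. One library came from recipients of IL-10R KO bone marrow, whose donors carried a knockout of Il10rb, a gene of the IL-10 receptor. The other came from recipients of IL-10R/CerS2 DKO marrow, whose donors lacked in addition CerS2, an enzyme for ceramides with very long acyl chains. Recipients carried CD45.1 and donor cells carried CD45.2. The authors' methods give a sort of the colon cells for CD45, CD11b, CD11c and CD64, while their results describe a sort of CD45+ immune cells. CD11b, CD11c and CD64 are proteins on the surface of myeloid cells. Both libraries shared the knockout of Il10rb in blood-forming cells, and neither a wild-type nor a CerS2-only library was analysed here. The sources used here do not say how many colons went into a library, and the age of the mice was not taken from them.

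With 1 library for each genotype there was no replicate, and genotype cannot be told apart from mouse, sort or library. The KO library held 2584 cell barcodes with 12549471 UMIs (molecular tags, each counted once) and the DKO library 742 barcodes with 3414944 UMIs, of which 2443 and 730 cells were kept. Cells were clustered without the 8 genes, and 1520 KO and 319 DKO cells fell into clusters named monocyte/macrophage-like from their markers, with medians of 5500 and 5375 UMIs per cell. Cers2 itself had 443 UMIs in the KO and 0 in the DKO monocyte/macrophage-like cells, and 1 barcode sequence occurred in both libraries. B cell-like, T cell-like and neutrophil-like clusters were also present, although the sort given in the methods was meant to exclude these cells. Levels are given as UMIs of the gene per 1000000 UMIs of the same cells (CPM), and since each 3′ molecule was counted once, levels of different genes were compared without scaling by length. Intervals are 95% intervals (exact Poisson for levels, exact conditional for ratios, Clopper-Pearson for shares of cells), and they cover counting error only. Where a gene had 0 UMIs, the level said to be allowed is that of 3 UMIs, which is below the upper end of the Poisson interval.

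Arginine enters macrophages through cationic amino acid transporters such as CAT2, the product of Slc7a2. Inside the cell it is split by arginase (Arg1 in the cytosol, Arg2 in mitochondria) into ornithine and urea, or oxidised by the inducible nitric oxide synthase (Nos2) into nitric oxide and citrulline. Citrulline can be turned back into arginine by argininosuccinate synthase (Ass1) and argininosuccinate lyase (Asl), and ornithine decarboxylase (Odc1) takes ornithine into the polyamines. Acod1 encodes the mitochondrial enzyme that makes itaconate from cis-aconitate in activated myeloid cells. Arg1 and Nos2 are commonly used as opposite markers of macrophage activation in mice, which is why their detection in the same cell is described here.

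In the gene annotation of mm10 (GENCODE, GRCm38) the 8 genes lie on 7 chromosomes, all protein coding. Arg1 is at chr10:24915221-24927484 on the minus strand, Nos2 at chr11:78920787-78960254, Slc7a2 at chr8:40862396-40922308 and Acod1 at chr14:103046977-103056573 on the plus strand. Ass1 is at chr2:31470207-31520672 on the plus strand and Asl at chr5:130011258-130029247 on the minus strand. Arg2, at chr12:79130777-79156301, and Odc1, at chr12:17544794-17551505, share chromosome 12 at distant positions.

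In the monocyte/macrophage-like cells Slc7a2, Arg1 and Nos2 were found almost entirely in the KO library, Acod1, Ass1 and Arg2 were lower in DKO by smaller amounts, and Asl and Odc1 were at similar levels in both. Of the 8 genes, 4 were at least 2-fold lower in DKO and 0 were at least 2-fold higher, where 4.97% of the 10793 genes with at least 10 UMIs were at least 2-fold lower and 6.17% at least 2-fold higher. Since the genes were chosen with these values known, nothing is read from that contrast. The median log2 ratio of DKO over KO was -0.94 over the 8 genes and 0.10 over all genes measured. Scaling by TMM or by DESeq2 size factors moved every ratio by -0.12 on the log2 scale.

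Arginase 1 had 2747 UMIs in 1520 KO cells and 1 UMI in 319 DKO cells, or 315 CPM (303 to 327) and 0.564 CPM (0.0143 to 3.14). The log2 ratio was -8.54 (-14.4 to -6.65), ranked 1 from the lowest of the 10793 genes. Arg1 was found in 180 KO cells, or 11.8% of them (10.3 to 13.6), and in 1 DKO cell, 0.314% (0.00794 to 1.73). The transporter gene Slc7a2 followed the same division, with 471 UMIs (54.0 CPM) in KO against 1 UMI (0.564 CPM) in DKO. Its log2 ratio was -6.00 (-11.9 to -4.10), rank 9, and it was found in 132 KO cells and 1 DKO cell. Nos2 had 1751 UMIs (201 CPM, 191 to 210) in KO and 18 UMIs (10.1 CPM, 6.01 to 16.0) in DKO, for a log2 ratio of -4.27 (-5.07 to -3.64) and rank 18. It was found in 232 KO cells, 15.3% (13.5 to 17.2), and in 8 DKO cells, 2.51% (1.09 to 4.88), none of which held more than 3 UMIs. These were the 3 members with the lowest ratios.

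Acod1 had 1536 UMIs in KO and 154 in DKO, or 176 CPM (167 to 185) against 86.8 CPM (73.6 to 102), for a log2 ratio of -1.02 (-1.27 to -0.78). Cells with the transcript made up 37.1% in KO (34.7 to 39.6) and 19.4% in DKO (15.2 to 24.2). Ass1, which regenerates arginine from citrulline, had 3757 and 418 UMIs, or 431 and 236 CPM, for a log2 ratio of -0.87 (-1.02 to -0.72). The mitochondrial arginase gene Arg2 had 1589 and 214 UMIs, or 182 and 121 CPM, for a log2 ratio of -0.59 (-0.81 to -0.39). For these 3 genes the intervals of the 2 libraries lay apart, but transcript remained in many DKO cells.

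Promoter sequence was matched for 3 of the 8 members, Ass1, Odc1 and Acod1, in RefSeq, build GRCm38.p6 (the reference for mm10), as 250 bases before and 50 after the RefSeq gene start. The RefSeq starts lie downstream of the GENCODE starts given above, so the matches below fall inside the GENCODE genes. Ass1 and Acod1 are printed because both were lower in DKO, as given above, while their highest levels lay in different cells. Letters searched on both strands were TATAAA (core promoter box), TGANTCA (AP-1), ACGTG (the core of the hypoxia response element), TTCNNNGAA (GAS), TTGCNNAA (C/EBP) and CACGTG (E-box), which itself holds ACGTG, and an NF-kB motif by name. Capitals mark the matches, and positions count back from the RefSeq start. Ass1, chr2:31470020-31470319, plus strand, has CACGTG at -36, and Acod1, chr14:103046762-103047061, plus strand, has TATAAA at -28 and ACGTG at -18 on the minus strand, printed as CACGT.
Ass1: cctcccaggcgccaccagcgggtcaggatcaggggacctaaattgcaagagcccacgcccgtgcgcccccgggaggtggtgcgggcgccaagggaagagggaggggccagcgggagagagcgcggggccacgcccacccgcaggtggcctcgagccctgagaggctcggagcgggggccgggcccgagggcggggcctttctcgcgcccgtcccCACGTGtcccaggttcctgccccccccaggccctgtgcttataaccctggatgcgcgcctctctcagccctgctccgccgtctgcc
Acod1: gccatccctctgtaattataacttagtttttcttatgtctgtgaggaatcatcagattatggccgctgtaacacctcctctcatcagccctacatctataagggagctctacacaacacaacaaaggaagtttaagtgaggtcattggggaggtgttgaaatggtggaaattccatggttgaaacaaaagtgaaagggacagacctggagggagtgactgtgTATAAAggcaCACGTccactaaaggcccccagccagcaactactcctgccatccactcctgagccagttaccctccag
CACGTG occurs in 7.15%, TATAAA in 13.6% and ACGTG in 19.6% of the 32851 promoters of that length, and Odc1 had none of the letters searched. A match describes the letters in this window only.

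Asl, the partner of Ass1, was sparse, with 240 KO and 46 DKO UMIs (27.5 and 25.9 CPM), and its log2 ratio of -0.07 had an interval from -0.57 to 0.37. Odc1 was the most abundant member in both libraries, with 4239 and 923 UMIs (486 and 520.1 CPM) and a log2 ratio of 0.10 (-0.01 to 0.20). The Odc1 ratio was -0.021 under TMM and -0.024 under DESeq2 scaling, so its sign depended on the scaling. Neither gene's interval reached a 2-fold difference.

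**Figure D1:**
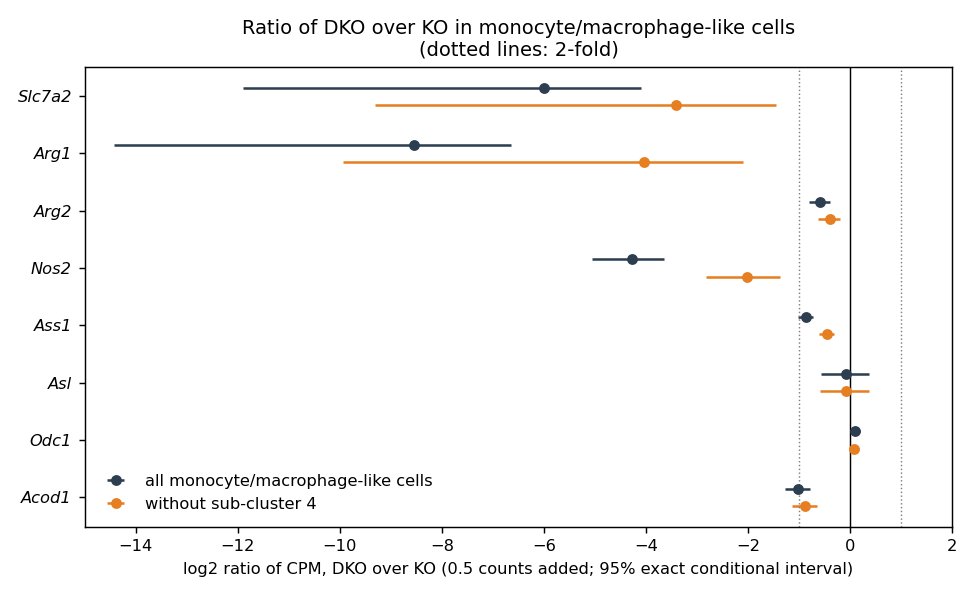
Log2 ratio of DKO over KO (x axis) for each of the 8 genes in all monocyte/macrophage-like cells (dark points) and without the Cxcl3-led sub-cluster, number 4 (orange points), with bars for 95% exact conditional intervals and dotted lines at 2-fold. Arg1, Slc7a2 and Nos2 lie at -8.54, -6.00 and -4.27 with all cells and move to -4.03, -3.40 and -2.02 without the sub-cluster, while Acod1, Asl and Odc1 move little.

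Most of the KO Arg1, Nos2 and Slc7a2 transcript lay in 1 sub-cluster. A second clustering of this class, which used neither the 8 genes and their pathway lists nor a list of inflammatory genes, gave 6 sub-clusters. The sub-cluster numbered 4 held 181 KO cells and 1 DKO cell, and is called here by its first leading gene, Cxcl3, a chemokine that attracts neutrophils. Its next leading genes were Arg1, Nos2 and Slc7a2, so their height there describes the sub-cluster. It made up 11.9% of the KO cells (10.3 to 13.6) and 13.8% of their UMIs, against 0.314% of the DKO cells (0.00794 to 1.73). Of the KO UMIs of the class, it held 96.2% for Arg1, 85.8% for Slc7a2 and 81.8% for Nos2. The shares fell to 36.3% for Ass1, 25.2% for Arg2 and 21.1% for Acod1, and were 12.9% for Asl and 12.4% for Odc1, close to the sub-cluster's share of all UMIs.

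Within the 181 KO cells of the Cxcl3-led sub-cluster, Arg1 was the most abundant of the 8 genes at 2192 CPM (2110 to 2278), followed by Nos2 at 1188 (1127 to 1251) and Ass1 at 1131 CPM (1071 to 1192), whose intervals overlapped. Odc1 stood at 435 CPM, Slc7a2 at 335 and Arg2 at 332, Acod1 at 269 and Asl at 25.7 CPM, and Slc7a2 and Arg2 could not be ordered by their intervals (303 to 369 and 300.1 to 366). A cell of this sub-cluster held a median of 11 Arg1 UMIs, with the middle of the distribution from 3 to 22 and a maximum of 72. For Nos2 the median was 6 UMIs and the maximum 38, for Ass1 6 and 45, and for Slc7a2 1 and 18. At least 10 Arg1 UMIs were counted in 99 of the 181 cells, and the 10 cells with the most held 18.3% of the Arg1 UMIs, so no few cells carried the total. The single DKO cell of the sub-cluster had 6913 UMIs, with 9 of Ass1, 3 of Arg2, 1 of Odc1 and 0 of the other 5 genes.

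The cells of this sub-cluster carried macrophage transcripts at uneven levels. Cd14 was found in 180 of 181 cells (99.4%) at 2868 CPM, against 1840 CPM over all KO monocyte/macrophage-like cells. Csf1r was found in 150 cells at 356 against 388 CPM, and Itgam, which encodes CD11b, in 120 cells at 256 against 135 CPM. Lyz2 stood at 795 CPM against 3082 over all KO monocyte/macrophage-like cells, Adgre1 (F4/80) at 11.6 against 61.6 and Fcgr1, which encodes CD64, at 29.0 against 77.0 CPM. C1qa (187 against 1121), Cd68 (146 against 248), Ccr2 (30.7 against 205) and Ly6c2 (79.6 against 207.5 CPM) were lower too. The naming rule gave classical monocyte-like for the sub-cluster from 3 markers, although Ly6c2 and Ccr2 of that list were lower there. The 14 monocyte/macrophage markers summed to 5713 CPM there, with 0 of them undetected, against 15510 CPM in the other KO cells of the class. The sum of 10 neutrophil markers was 842 CPM in the sub-cluster and 182 in the other KO cells, with 5th to 95th percentiles per cell of 0 to 15.8 and 0 to 7.98 UMIs per 10000. Of these markers 2 were at 0 in the sub-cluster, Ly6g among them. Trem1 gave 339 CPM from 148 cells and Hdc 172 CPM from 91 cells. S100a9 gave 174 CPM from only 3 cells, and S100a8 gave 122 CPM from 19 cells, with 82.3% of its UMIs in 1 cell. The sum of 10 T cell markers was 409 against 114 CPM, of which Il7r alone gave 376 against 99.5 CPM. Median depth was 6332 UMIs against 5383, and 6.63% of the cells against 6.05% were among the highest doublet scores of their library. The part of these markers and of depth in the member levels was not tested.

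Outside the Cxcl3-led sub-cluster the same 3 genes were rare in both libraries. Arg1 was found in 26 of 1339 KO cells, 1.94% (1.27 to 2.83), and in 1 of 318 DKO cells, 0.314% (0.00796 to 1.74), and these intervals of the shares overlapped. The level was 13.8 CPM in KO against 0.566 CPM in DKO, for a log2 ratio of -4.03 (-9.93 to -2.10), but 10 cells held 80.8% of the 104 KO UMIs and 1 cell held 38. Nos2 was found in 5.45% of these KO cells (4.30 to 6.81) and 2.52% of the DKO cells (1.09 to 4.90), with 42.4 and 10.2 CPM and a log2 ratio of -2.02 (-2.83 to -1.38). Its share intervals overlapped too, and 10 cells held 52.0% of the 319 KO UMIs. Slc7a2 was found in 2.76% (1.95 to 3.79) and 0.314% (0.00796 to 1.74), with 67 and 1 UMIs and a log2 ratio of -3.40 (-9.30 to -1.45). The ratio of UMIs treats molecules as independent, which the shares of cells do not, and for Arg1 and Nos2 the shares show less separation outside the sub-cluster.

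Removing the sub-cluster moved Ass1 from -0.87 to -0.46 (-0.62 to -0.31) on the log2 scale, the largest move among the other 5 genes. Arg2 moved to -0.40 (-0.62 to -0.19), Acod1 to -0.88 (-1.14 to -0.64), Asl to -0.08 and Odc1 to 0.08. Acod1 therefore kept most of its difference without these cells.

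**Figure D2:**
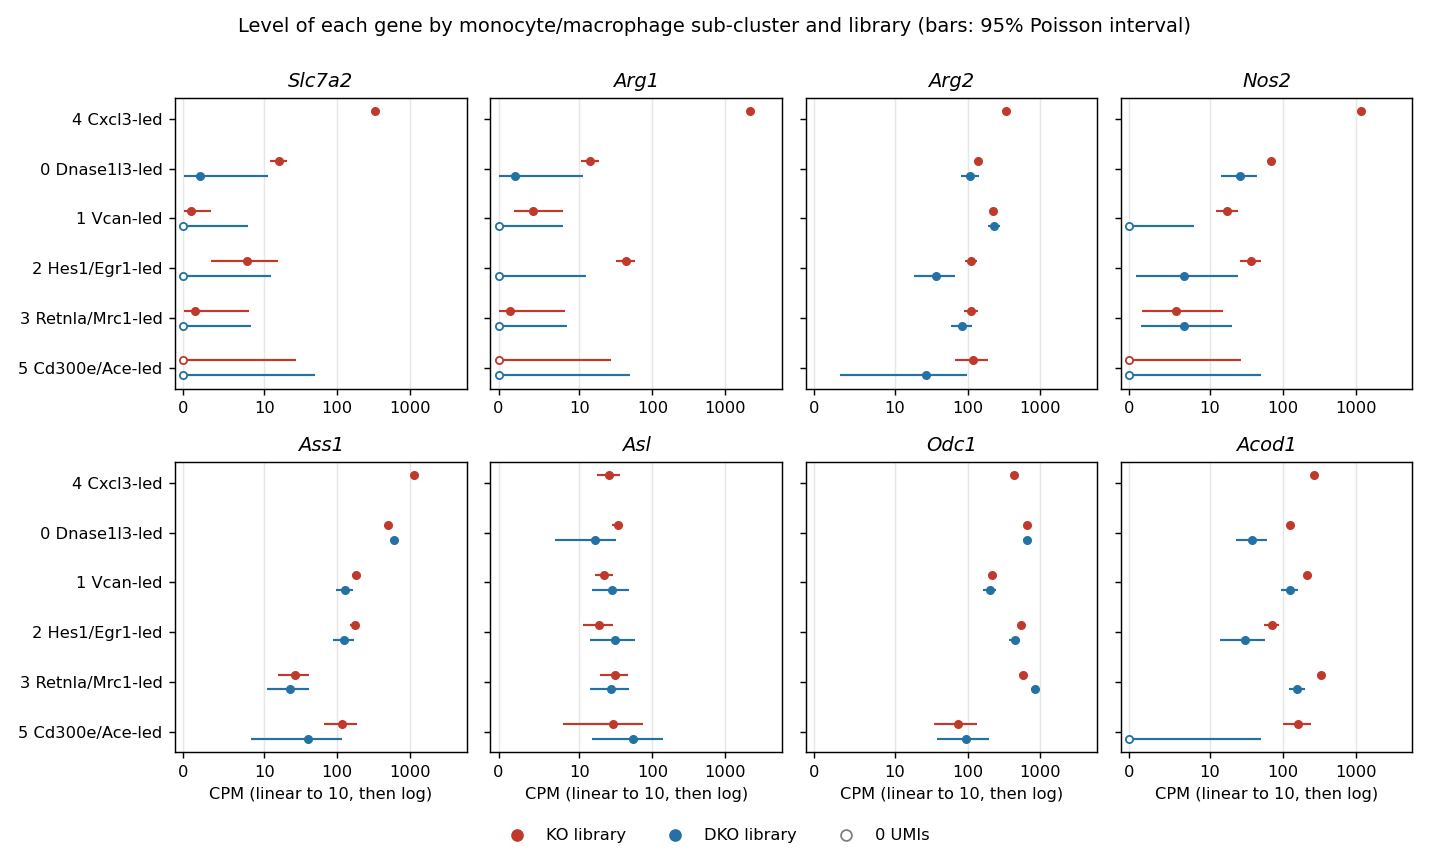
CPM of each gene (x axis, linear to 10 and then log) in the 6 monocyte/macrophage sub-clusters, numbered and named by leading genes, for the KO library (red) and the DKO library (blue), with 95% Poisson intervals; open circles are 0 UMIs, and the lone DKO cell of sub-cluster 4 is not drawn. Arg1, Nos2 and Slc7a2 peak in sub-cluster 4, whereas Acod1 is lower in DKO in each of the other 5 sub-clusters.

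Acod1 was lower in DKO in every one of the 5 sub-clusters with more than 1 DKO cell. It stood at 124 CPM in KO and 38.2 in DKO in sub-cluster 0, led by Dnase1l3, for a log2 ratio of -1.66 (-2.44 to -1.03). The Retnla-led sub-cluster 3, whose other leading genes included Mrc1, held the most Acod1 in KO at 335 CPM, with 157 CPM in DKO and a ratio of -1.09 (-1.50 to -0.70). In sub-cluster 1, with Vcan, a gene of classical monocytes, among its leading genes, the levels were 212 and 124 CPM, a ratio of -0.76 (-1.20 to -0.37), and in the Hes1- and Egr1-led sub-cluster 2 they were 70.4 and 30.3 CPM, a ratio of -1.15 (-2.40 to -0.21). In the small Cd300e-led sub-cluster 5 there were 22 UMIs in 42 KO cells (161 CPM) and 0 UMIs in 22 DKO cells, which allows up to 40.6 CPM. None of the 5 ratio intervals reached 0, and in the 4 larger sub-clusters TMM and DESeq2 scaling moved the ratios further below 0. The share of cells with Acod1 was lower in DKO in each too, but with less separation. Sub-cluster 3 gave 51.0% of KO cells (42.8 to 59.1) against 24.7% of DKO cells (16.2 to 35.0). Share intervals also lay apart in sub-cluster 5 but overlapped in sub-clusters 0, 1 and 2. With 1000 UMIs drawn from each cell that had as many, the share intervals lay apart in sub-cluster 0 alone.

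Arg1 and Slc7a2 were also lower in DKO in sub-clusters 0 to 3, and had 0 UMIs in sub-cluster 5 in both libraries. Their intervals lay below 0 in sub-clusters 0 and 2 for Arg1 and in sub-cluster 0 for Slc7a2. For Nos2 they lay below 0 in sub-clusters 0, 1 and 2, while sub-cluster 3 gave 0.28 (-2.55 to 2.79). Ass1, Arg2, Asl and Odc1 had no such common direction. Ass1 was highest in the Cxcl3-led cells, next in sub-cluster 0, and lowest in sub-cluster 3 at 26.3 CPM in KO and 22.8 in DKO. In sub-cluster 0 it was 508 CPM in KO and 603 in DKO, for a log2 ratio of 0.25 (0.07 to 0.43), the opposite direction to the class as a whole, and 0.20 (0.01 to 0.37) under TMM scaling, while in sub-cluster 1 it was 180.2 and 128 CPM, a ratio of -0.48 (-0.91 to -0.09). Sub-cluster 0 made up 33.6% of the KO and 20.4% of the DKO monocyte/macrophage-like cells, and sub-cluster 3 made up 10.2% and 27.9%. Arg2 was lower in DKO in sub-cluster 2, at 112 and 37.0 CPM, a ratio of -1.54 (-2.64 to -0.71) from 115 and 11 UMIs, and in sub-cluster 5, at 117 and 27.0 CPM, a ratio of -1.84 (-5.28 to -0.03) from 16 and 2 UMIs. In sub-cluster 1, Arg2 was 226 and 232 CPM, a ratio of 0.05 (-0.27 to 0.35). Odc1 was 569 and 834 CPM in sub-cluster 3, a ratio of 0.55 (0.34 to 0.76), and there alone did its interval leave out 0, although under TMM it also did in sub-cluster 2, at -0.38 (-0.67 to -0.11). Asl was between 16.1 and 54.1 CPM in all 11 drawn groups and its interval left out 0 only in sub-cluster 0, at -0.97 (-2.30 to -0.03) with 118 and 8 UMIs.

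Arg1 and Nos2 were found in the same KO cells. Of the 1520 cells, 149 held both transcripts, 31 held Arg1 alone, 83 held Nos2 alone and 1257 held neither. Nos2 was found in 82.8% of the cells with Arg1 (76.4 to 88.0) and in 6.19% of those without it (4.96 to 7.62). In the other direction, 64.2% of the cells with Nos2 (57.7 to 70.4) held Arg1. The 149 cells had a median of 6376 UMIs and the cells with neither 5342, and 5.37% of the 149 were among the highest doublet scores of the library, against 6.12% of all 1520. Requiring at least 2 UMIs of each gene gave 134 cells with both, and Nos2 in 83.2% of the cells with Arg1.

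Depth was made equal by drawing 2000 UMIs from each cell, which left out 93 KO cells below that depth. Then 111 cells held both, 48 Arg1 alone, 61 Nos2 alone and 1207 neither, and Nos2 was found in 69.8% of the cells with Arg1 (62.0 to 76.8) against 4.81% of those without it (3.70 to 6.14). In the DKO library 0 of 319 cells held both, with an interval up to 1.15%, while 1 cell held Arg1 alone and 8 cells held Nos2 alone. Independent detection at these rates would give 0.025 DKO cells with both, so co-detection could not be judged there. The background for detection in cells that should lack both genes was 2 Arg1 UMIs in 2 of 228 KO B cell-like cells (0.877%, median depth 2434 UMIs) and 0 Nos2 UMIs in 394 B cell-like cells of both libraries.

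**Figure D3:**
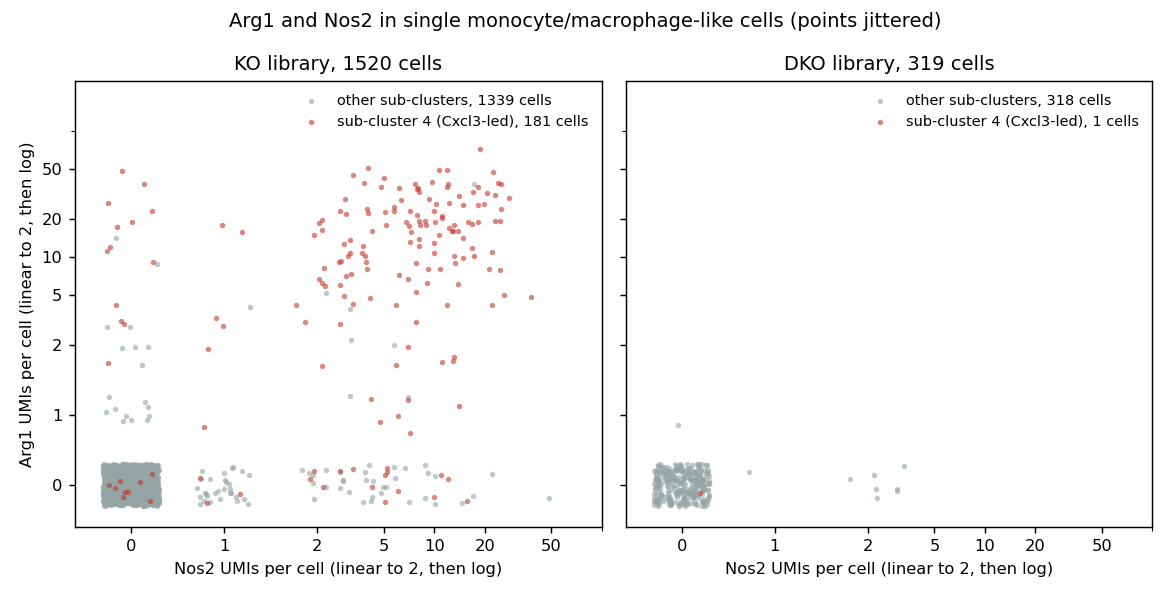
Arg1 UMIs (y axis) against Nos2 UMIs (x axis) in each monocyte/macrophage-like cell of the KO library (left, 1520 cells) and the DKO library (right, 319 cells), both axes linear to 2 and then log, with points jittered and cells of the Cxcl3-led sub-cluster in red. The 149 KO cells with both transcripts fill the upper right of the left panel, and no DKO cell lies there.

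The joint detection lay in the Cxcl3-led sub-cluster. There 141 of 181 cells held both, 13 Arg1 alone, 18 Nos2 alone and 9 neither. Outside it, 8 of 1339 cells held both, 18 Arg1 alone and 65 Nos2 alone. Among these outside cells Nos2 was found in 30.8% of those with Arg1 (14.3 to 51.8) and in 4.95% of those without (3.84 to 6.27). Inside the sub-cluster at 2000 UMIs per cell, 106 of 178 cells held both, and Nos2 was found in 73.6% of the cells with Arg1 (65.6 to 80.6) and 64.7% of those without (46.5 to 80.2). At full depth the same shares were 91.6% (86.0 to 95.4) and 66.7% (46.0 to 83.5), so the intervals overlapped after thinning and lay apart before it.

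Both genes also varied in amount within the sub-cluster. Arg1 UMIs exceeded Nos2 UMIs in 116 of 181 cells, Nos2 exceeded Arg1 in 52, and they were equal in 13. A 4-fold excess of Arg1 was seen in 31 cells and a 4-fold excess of Nos2 in 12. Across the 178 thinned cells of this 1 library, Pearson's r of the logged counts was 0.26 between Arg1 and Nos2 and 0.23 between Arg1 and Slc7a2, 0.16 between Nos2 and Slc7a2 and 0.02 between Arg1 and Ass1. Counts per cell are sparse and the cells share a library, so these are descriptions. All 4 of Arg1, Nos2, Slc7a2 and Ass1 were found in 74 cells of the sub-cluster, 40.9% (33.7 to 48.4), in 2 of the 1339 other KO cells and in 0 of 319 DKO cells. At least 5 of the 8 genes were found in 148 cells of the sub-cluster, 81.8% (75.4 to 87.1), in 3.36% of the other KO cells (2.46 to 4.47) and in 1.25% of the DKO cells (0.343 to 3.18).

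The other members were then compared between KO cells sorted by detection of Arg1 and Nos2 at 2000 UMIs, in UMIs per 10000. Slc7a2 was 0.0663 in cells with neither gene, 0.902 with Nos2 alone (0.450 to 1.61), 2.19 with Arg1 alone (1.35 to 3.34) and 4.14 with both (3.34 to 5.08). Ass1 was 2.98, 7.46, 9.27 and 11.6 in the same order, where the intervals of Arg1 alone (7.45 to 11.4) and both (10.2 to 13.1) overlapped. Arg2 was 1.76 with neither and 1.64 with Nos2 alone, and 3.23 with Arg1 alone and 3.56 with both. For Slc7a2 the interval of the cells with both met that of the Arg1-alone cells at 3.34. These groups mix cells of the Cxcl3-led sub-cluster with others, and inside it Ass1 was 10.7 with Arg1 alone (8.46 to 13.3), 11.4 with Nos2 alone (8.43 to 14.98) and 11.8 with both (10.3 to 13.3), with overlapping intervals. Slc7a2 inside it was 2.76 with Arg1 alone (1.71 to 4.22), 1.36 with Nos2 alone (0.5004 to 2.97) and 4.34 with both (3.50 to 5.32), where the intervals of Nos2 alone and both lay apart. The Nos2-alone level rested on 6 Slc7a2 UMIs in 4 of 22 cells. As shares of cells, 18.2% with Nos2 alone (5.19 to 40.3) and 44.3% with both (34.7 to 54.3) overlapped. Arg2 inside it was 3.16 with Arg1 alone (2.02 to 4.70), 2.045 with Nos2 alone (0.935 to 3.88) and 3.73 with both (2.95 to 4.64), with overlapping intervals. Outside the sub-cluster, the cells with Arg1 numbered 10 with Arg1 alone and 5 with both, too few to order the levels.

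Acod1 ordered the cells differently. It was 5.08 per 10000 with Nos2 alone (3.90 to 6.52), 2.88 with both (2.22 to 3.68), 1.70 with neither (1.54 to 1.87) and 1.35 with Arg1 alone (0.721 to 2.32). As shares of cells the separation was smaller, with Acod1 in 37.7% of the 61 Nos2-alone cells (25.6 to 51.0) and 20.8% of the 48 Arg1-alone cells (10.5 to 35.0), whose intervals overlapped. Inside the Cxcl3-led sub-cluster the levels were 5.23 in 22 cells with Nos2 alone (3.31 to 7.84) and 1.71 in 38 cells with Arg1 alone (0.911 to 2.92). Odc1 was 5.0 with Arg1 alone, 4.67 with neither, 3.87 with both and 2.79 with Nos2 alone (1.93 to 3.89). Asl had at most 5 UMIs in the 3 groups with either transcript and could not be ordered at this depth.

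**Figure D4:**
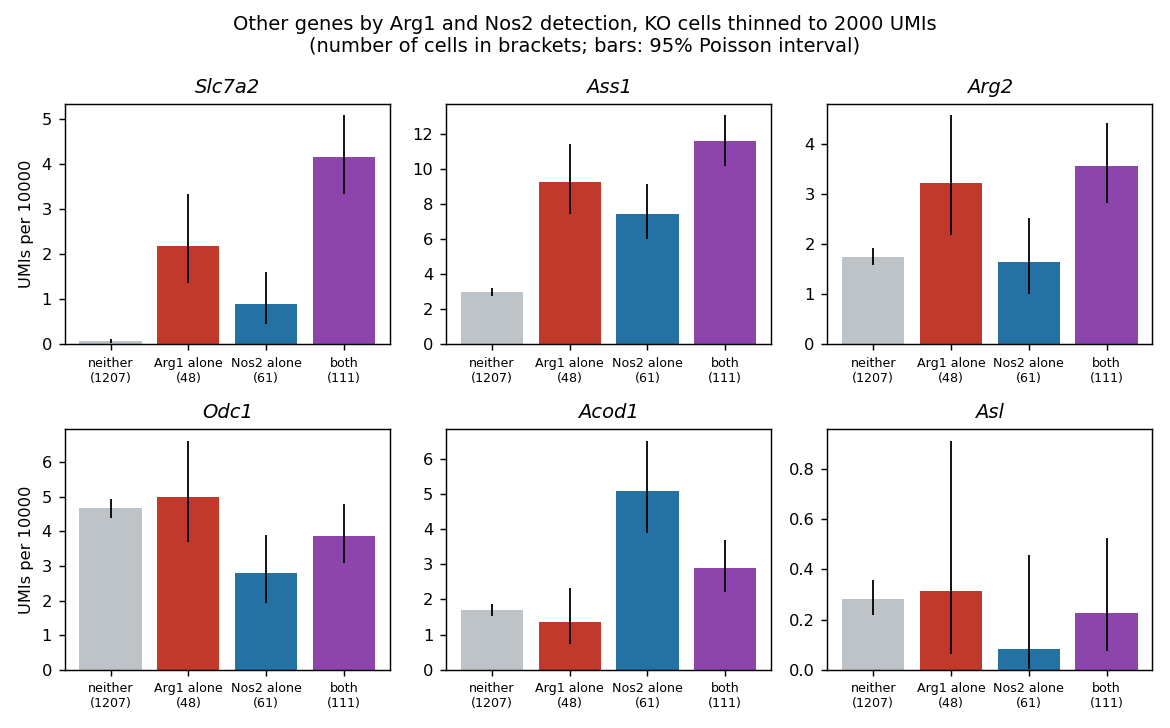
UMIs per 10000 (y axis, from 0) of 6 genes in KO monocyte/macrophage-like cells thinned to 2000 UMIs, grouped by detection of neither (1207 cells), Arg1 alone (48), Nos2 alone (61) or both (111), with 95% Poisson intervals. The bars of Slc7a2 and Ass1 are tallest in cells with both, and that of Acod1 in cells with Nos2 alone.

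Over the 1520 KO cells, the genes whose logged levels correlated most with Arg1, among 7794 genes with at least 50 UMIs, were Cxcl3 (Pearson's r 0.75), Nos2 (0.74), Ero1l (0.65), Inhba (0.63), AA467197 (0.62), Bnip3 (0.62), Slc7a2 (0.62) and Grina (0.61). Ero1l encodes an oxidase of protein folding, Inhba a subunit of activin and Bnip3 a mitochondrial protein of mitophagy. For Nos2 the list was Arg1 (0.74), AA467197 (0.69), Cxcl3 (0.66), Inhba (0.66), Ero1l (0.61), Il1a (0.60), Grina (0.58) and Slc7a2 (0.58), so 6 genes stood in both lists of 8. The genes most like Acod1 had lower values, from Ifi205 (0.42) and Clec4e (0.41) through Marcksl1, Sod2, Slfn2, Cd38, Gbp2 and Cflar. Acod1 itself correlated with Nos2 at 0.19 and with Arg1 at 0.11, and Ass1 correlated with Nos2 at 0.37 and with Arg1 at 0.37. Cxcl3, Slc7a2, Il1a and Ero1l were also leading genes of the Cxcl3-led sub-cluster, which held most Arg1 and Nos2 UMIs. Values over all cells therefore largely describe membership of that sub-cluster. Among its thinned cells, r was 0.26 between Arg1 and Nos2 and 0.02 between Arg1 and Ass1. These cells share a library and its depth, and the values carry no test.

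In other cell classes the members followed a different order, and Arg1, Nos2 and Slc7a2 were at or near background. Of the KO UMIs in all kept cells, 99.1% of Arg1, 99.3% of Nos2 and 99.2% of Slc7a2 lay in monocyte/macrophage-like cells. The 21 Arg1 UMIs of the T cell-like cells came from 1 KO barcode with 11313 UMIs that also held 31 UMIs of monocyte/macrophage markers and 50 of T cell markers, and whose doublet score was at percentile 99.7 of its library. Neutrophil-like cells had 0 Arg1 UMIs in both libraries, which allows up to 10.7 CPM in KO against 36.1 CPM in DKO.

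Neutrophil-like cells had the highest Acod1 and Arg2. Acod1 was 3366 CPM in 159 KO cells (3154 to 3588) and 2466 CPM in 47 DKO cells (2140 to 2828), and was found in 92.5% and 87.2% of them. The log2 ratio was -0.45 (-0.67 to -0.23) and -0.60 under TMM scaling of this class. This class therefore held 37.4% of all Acod1 UMIs in KO and 56.0% in DKO. Arg2 was 671 and 674 CPM, a ratio of 0.01 (-0.45 to 0.44), which was -0.14 under TMM, so it differed by less than its counting error. Ass1 had 0 UMIs in neutrophil-like cells of both libraries, and Odc1 had 2 and 3 UMIs.

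Odc1 was highest in T cell-like cells, at 1603 CPM in KO (1504 to 1708) and 1804 in DKO (1599 to 2029), and among the named classes next in dendritic cell-like cells at 542 and 699 CPM. A cluster left unnamed for its low depth stood at 591 CPM in KO, from 53 UMIs, and 446 in DKO, from 11. Dendritic cell-like cells held Ass1 at 239 CPM in KO (214 to 266) and 509.8 in DKO (456 to 569), for a log2 ratio of 1.09 (0.87 to 1.32), from 336 UMIs in 140 cells and 320 UMIs in 61 cells. The shares of these cells with Ass1 were 57.1% (48.5 to 65.5) and 63.9% (50.6 to 75.8) and overlapped. Arg2 was low in them, with 22 and 20 UMIs (15.7 and 31.9 CPM), a ratio of 1.03 (0.08 to 1.97). In B cell-like cells Acod1, Arg2, Nos2 and Slc7a2 had 0 UMIs in both libraries, which allows up to 4.45 CPM in KO against 6.49 CPM in DKO, and Odc1 was 126 and 113 CPM.

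**Figure D5:**
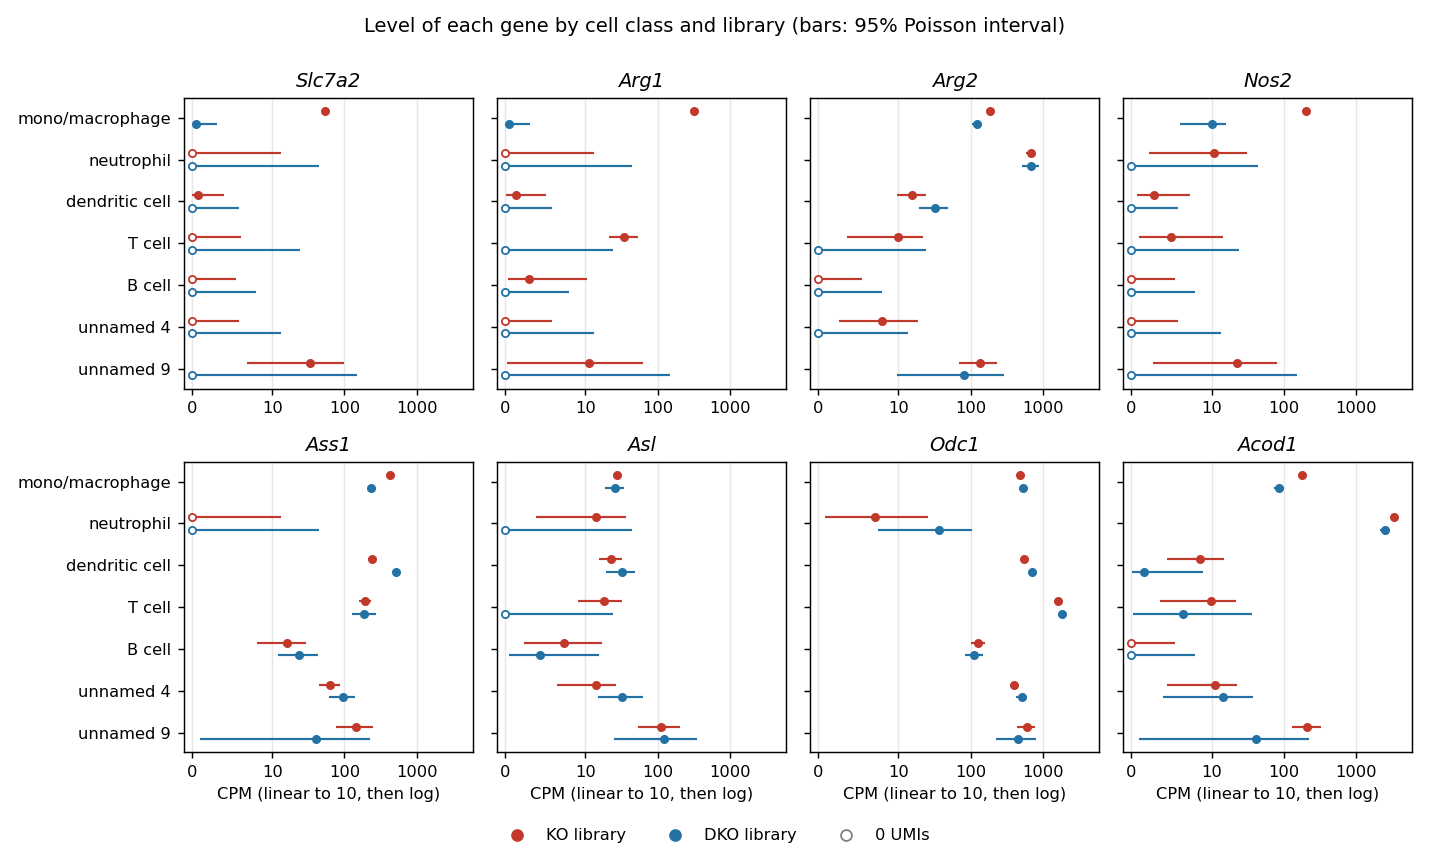
CPM of each gene (x axis, linear to 10 and then log) in 7 cell classes for the KO library (red) and the DKO library (blue), with 95% Poisson intervals and open circles for 0 UMIs. Arg1, Nos2 and Slc7a2 are highest in the KO monocyte/macrophage-like cells, Acod1 and Arg2 are highest in neutrophil-like cells (3366 and 671 CPM in KO) and Odc1 in T cell-like cells (1603 CPM in KO).

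The other genes of these pathways were counted in the monocyte/macrophage-like cells, where over all 10793 genes 8.34% had an interval below 0 and 13.9% above, beside the 4.97% and 6.17% at 2-fold. The lists are short, and nothing particular to them is read from their counts. Of 10 measured genes of arginine transport and ornithine use, 0 were 2-fold lower or higher in DKO, 3 had an interval above 0 and 0 below, and the median log2 ratio was 0.29 against 0.10 over all genes. The 3 with most UMIs were Slc3a2, the heavy chain of several amino acid transporters, at 464 and 524 CPM (0.17), Gatm at 97.4 and 101 CPM (0.06) and Oat, which uses ornithine in mitochondria, at 70.8 and 96.4 CPM (0.45). Of 13 polyamine genes, 1 was 2-fold lower with an interval that included 0, 1 interval lay below 0 and 4 above, and the median was 0.19. Sat1, which acetylates polyamines for export, was 1164 and 1142 CPM (-0.03), Oaz1, the antizyme that targets Odc1 for breakdown, was 992 and 1092 CPM (0.14), and Eif5a, the protein that carries hypusine made from spermidine, was 458 and 575 CPM (0.33).

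Of 9 measured genes of the nitric oxide cofactor, inhibitors and receptor, 1 was at least 2-fold higher, with an interval that included 0, and 0 were lower. An interval lay below 0 for 1 gene and above 0 for 1, and the median was 0.29. Gch1, the first enzyme of tetrahydrobiopterin synthesis, was 172 and 132 CPM, for a log2 ratio of -0.37 (-0.58 to -0.18). In the KO library Gch1 was 336 CPM in the Cxcl3-led sub-cluster and 145 CPM in the other monocyte/macrophage-like cells, and 3.42 per 10000 in cells with both Arg1 and Nos2 against 1.4 with neither. Pts, the next enzyme of that pathway, was 37.5 and 49.0 CPM (0.39) and Nosip 20.9 and 25.4 CPM (0.29). Of 15 measured genes around itaconate, 1 was 2-fold higher, none had an interval outside 0 and the median was 0.14. The succinate dehydrogenase subunits Sdhb and Sdhd, of the enzyme that itaconate inhibits, were 158 and 142 CPM (-0.15) and 75.2 and 87.4 CPM (0.22).

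Of 12 transcription factors known to act on Arg1, Nos2 or Acod1, 4 had an interval below 0 and 4 above, and the median was -0.03. Batf2 was 72.2 CPM in KO and 33.3 in DKO, for a log2 ratio of -1.11 (-1.53 to -0.73), and Irf4 was 12.8 and 34.9 CPM, a ratio of 1.45 (0.97 to 1.91). Among the most abundant were Cebpb at 2080 and 2073 CPM (0.00, from -0.06 to 0.05) and Hif1a, the hypoxia-inducible subunit, at 616 and 343 CPM, a ratio of -0.85 (-0.97 to -0.73). Within KO, Hif1a was 970.5 CPM in the Cxcl3-led sub-cluster and 559 CPM outside it, and Irf4 was 4.15 and 14.2 CPM.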

How the data were processed

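The authors deposited raw UMI counts per gene and barcode for 1 KO and 1 DKO library, made from 3′ v3.1 droplet libraries with Cell Ranger 6.0.1 on mm10, per the labels. The 8 genes, the gene lists and the markers were chosen with earlier results of these data known, and the rule that scores cluster names was also taken from that earlier work.

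Kept cells had 300 to 5000 genes and no more than 10% mitochondrial UMIs. Seurat 5.3.0 clustered them on 2000 variable genes, 30 components and 20 neighbours at resolution 0.3, without the listed genes, and clusters were named from at least 3 markers. Doublets were scored with Scrublet in scanpy 1.11.5 and left in, except in an alternative. Ratios had 0.5 counts added and covered genes with at least 10 UMIs. No test was possible with 1 library per group. The ratio script was tested on simulated data. Named genes outside the members were those of the lists with a 2-fold difference and an interval without 0, up to 3 per list with the most UMIs, and the 8 most correlated with Arg1, Nos2 and Acod1; some list genes that this rule names are not reported here. Alternatives changed the scaling (edgeR 4.0.16 TMM, DESeq2 1.42.0), clustering, cell filter, doublets, Lyz2 gate, added count and depth.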

Additional observations from a re-analysis of the deposited data

Results flagged for a closer look

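The DKO over KO ratio of 2 genes had opposite directions in different cells, and the differences between these ratios were not tested. In dendritic cell-like cells the log2 ratio of Ass1 was 1.09 and that of Arg2 was 1.03, against -0.87 and -0.59 in monocyte/macrophage-like cells. The Arg2 value rests on 22 KO and 20 DKO UMIs. In the Dnase1l3-led sub-cluster of the monocyte/macrophage-like cells the log2 ratio of Ass1 was 0.25, against -0.87 over the class that contains it.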

How the results depend on the processing

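No paired analysis was possible because each genotype had 1 library, and no replicate could be left out. Of 90 alternative values, 72 stayed within the counting interval of the reported value (gene counts within 1.5 times), 18 moved, and 0 changed the sign of a ratio whose interval left out 0. Without the Cxcl3-led sub-cluster the log2 ratios were -4.03 for Arg1, -2.02 for Nos2, -3.40 for Slc7a2 and -0.46 for Ass1. At resolution 0.8, where 1083 KO and 256 DKO cells carried the name, Nos2 was -5.56, Ass1 -1.80 and Odc1 0.27, and with every cell that held a Lyz2 UMI (1606 and 381 cells) Ass1 was -0.35 and Acod1 -0.71. Odc1 was -0.021 with TMM and -0.024 with DESeq2 factors. Without the filter on low counts 829 genes were at least 2-fold lower and 1804 higher, against 536 and 666. Nos2 was found in 69.8% of the KO cells with Arg1 after thinning and in 89.2% at resolution 0.8, and in cells without Arg1 in 4.81% after thinning, 4.27% with at least 2 UMIs and 4.58% at resolution 0.8. The co-detection at resolution 0.8 and the scaling within other classes and sub-clusters were alternatives chosen after seeing the data. Beyond the removal of cells or reads that each alternative makes, the cause was not tested. Single UMIs of Arg1 and Slc7a2 in DKO set the lower limits of their ratios.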

Other observations

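Within the KO library, 2 other genes of the pathway lists, chosen after their values were seen, went opposite ways in the Cxcl3-led sub-cluster. Smox, which oxidises spermine, was 577 CPM in the sub-cluster and 236 CPM in the other monocyte/macrophage-like cells, a log2 ratio of 1.29 (1.16 to 1.42). Slc7a1, the constitutive counterpart of the Slc7a2 transporter, was 15.8 CPM there and 33.4 CPM outside, a log2 ratio of -1.05 (-1.84 to -0.41). Sat1 was also lower in the sub-cluster, at 716 against 1235 CPM. Between the libraries Smox was 283 CPM in KO against 224 in DKO, and Slc7a1 was 31.0 and 47.3 CPM.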
